A study of Arabidopsis thaliana with 8 samples.

Results

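The evening complex is a repressor module of the Arabidopsis circadian clock, and its genes were examined for CONSTANS (CO) binding in chromatin immunoprecipitation sequencing (ChIP-seq) data. The 4 genes were chosen by name as ELF3 (AT2G25930), ELF4 (AT2G40080), LUX (AT3G46640, listed as PCL1 in RefSeq) and BOA (AT5G59570). They are 4 of 27444 nuclear protein-coding genes. A peak was assigned to a gene if its summit, the position of highest signal, fell inside the gene or no more than 3000 bp outside it. By that rule 3 of the 3214 peaks in the authors' filtered list belonged to these genes, 1 each at ELF4, LUX and BOA.

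Long-day seedlings of 2 genotypes were harvested at an age of 7 days, and chromatin of both was immunoprecipitated with the same anti-CO antibody. Plants labelled 35S:CO carry CO under a viral promoter that is active in most tissues. Transcription of CO was therefore not restricted to the cells and hours in which its own promoter works. The co-10 mutant, which lacks functional CO, showed what the antibody recovers without its target. Per genotype there were 2 immunoprecipitates and 2 inputs, but the peaks came as 1 list per genotype, so the values below cannot be compared between replicates. The number of independent lines or pooled plants behind each sample was not given in the sources used here.

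ELF3, ELF4 and LUX proteins assemble at dusk into the evening complex, which represses other clock genes and growth genes during the night. ELF3 is the scaffold and a target of light signalling, ELF4 is a small protein that binds ELF3, and LUX is the MYB-like factor that contacts DNA. BOA, also called NOX, is the closest relative of LUX and can take its place in the complex. CO promotes flowering in long days, and it is broken down in darkness by the COP1 ubiquitin ligase, which also acts on ELF3. The series title places CO upstream of changes in the clock, and the question here is which evening complex genes carry CO signal nearby.

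There were 3306 peaks for 35S:CO and 380 for co-10, of which 3287 and 312 were nuclear. All 3210 nuclear peaks of the filtered list were also 35S:CO peaks. The CO gene itself had a peak in both genotypes, with fold enrichments of 63.9 (co-10) and 15.3 (35S:CO), and no filtered peak. A peak over that gene does not measure CO protein and is higher in the mutant, so it is no check of the labels, on which the genotypes rest. Fold enrichment is the authors' ratio of the signal at the summit to the local background. Read totals per sample were not analysed here, so depth was read only from the background levels behind the peaks.

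Of the 4 evening complex genes, 3 had a filtered summit within 3000 bp, against 19.2% of all protein-coding genes under the same rule. The 3 peaks had fold enrichments of 9.89 at ELF4, 8.60 at LUX and 7.77 at BOA. The median nuclear filtered peak had 5.45, and the upper quartile was 8.59. Summits at ELF4 and LUX lay just outside the gene, within 250 bp of its end. The LUX summit lay as near to another gene, with AT3G46630 240 bp away and LUX 242 bp. The BOA summit lay almost at the limit of the window and closer to other genes. ELF3 had no peak. None of the 4 genes had a co-10 summit within 3000 bp, a class that held 0.619% of protein-coding genes. At so low a share, 4 genes are too few for that count to say more.

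**Figure D1:**
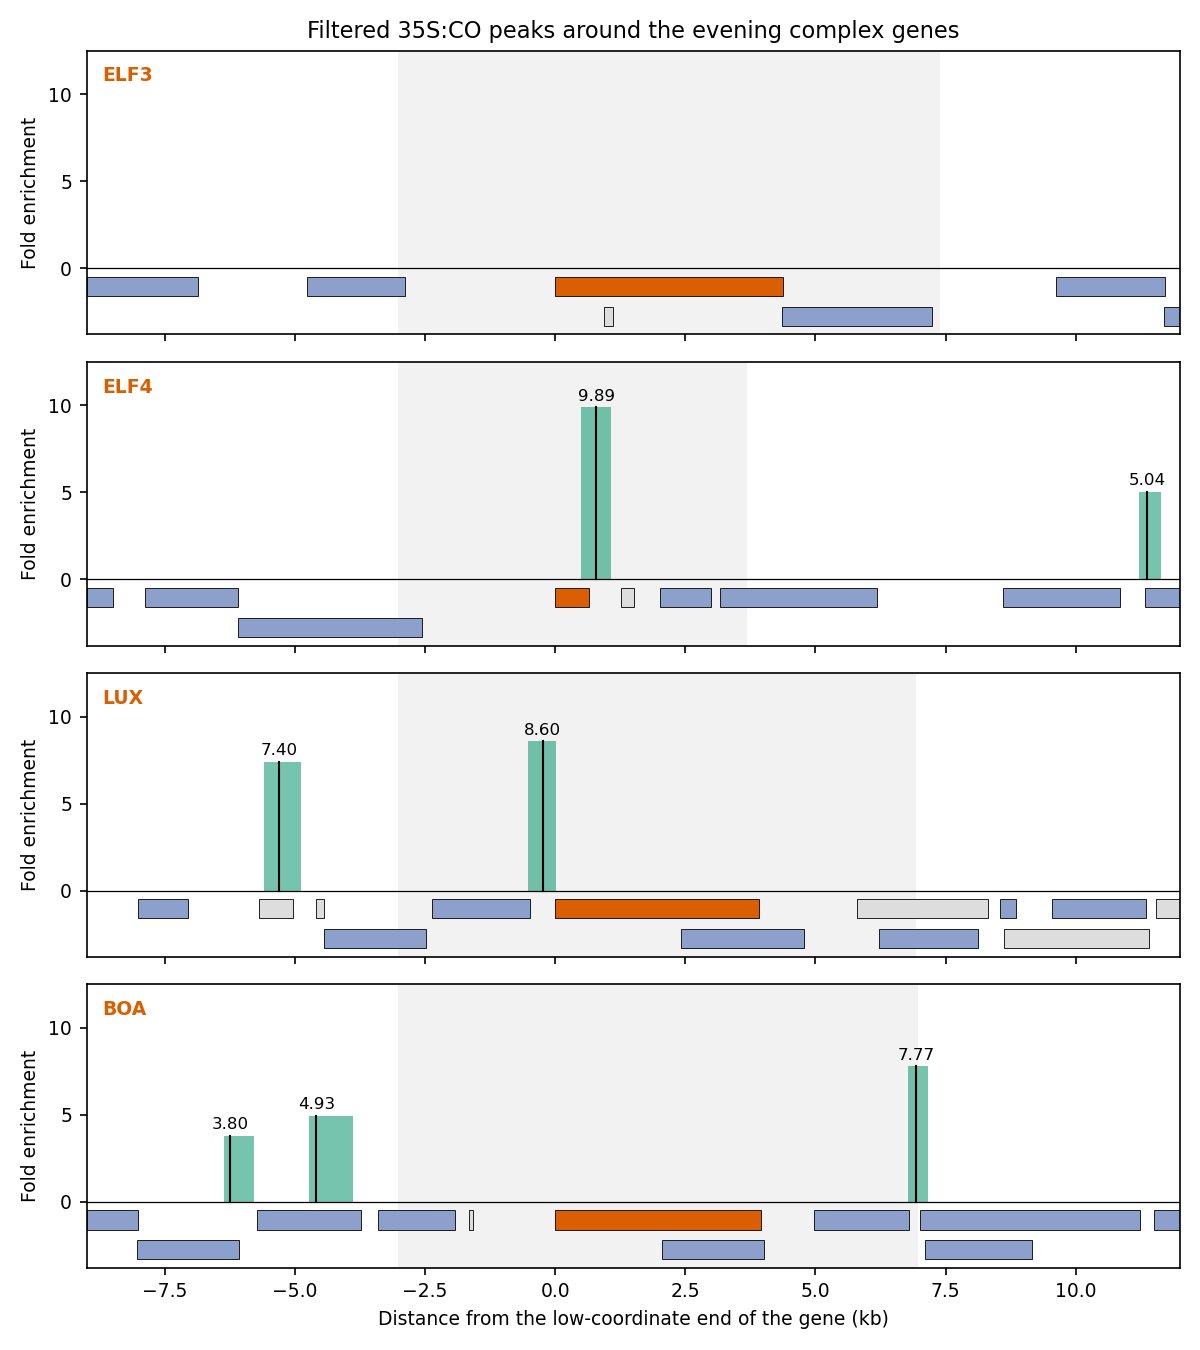
Filtered 35S:CO peaks around ELF3, ELF4, LUX and BOA, by distance in kb from the low-coordinate end of each gene; green blocks span the peaks with their fold enrichment as height and on top, black lines mark summits, grey shading marks the gene with 3000 bp on either side, and boxes are the named gene (orange), other protein-coding genes (blue) and other annotated genes (grey). The ELF4 and LUX peaks touch an end of their gene, the BOA summit lies at the edge of the shading, and the ELF3 panel is empty.

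ELF3, the scaffold of the complex, was the member without a summit within 3000 bp in any of the 3 lists. Its nearest filtered summit lay 27.4 kb away on the high-coordinate side, in a chromosome 2 peak from 11090546 to 11090881 whose fold enrichment was 4.91. On the low-coordinate side the nearest summit was 114 kb away. The stretch between those summits, 145.7 kb long, had 34 protein-coding genes wholly inside it and no summit of the 35S:CO or co-10 list. Among 3205 intervals between neighbouring filtered summits, 3.74% were as long, and the median interval was 19248 bp. Long intervals tend to hold more genes than short ones, so 3.74% is not the share of genes in such intervals. ELF3 therefore sits in a long peak-free stretch that it shares with many other genes. By distance alone it was not extreme, since 26.5% of protein-coding genes lay farther from a filtered summit.

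The weakest peaks that entered the list show how low a signal could be and still be listed. The pileup, the number of fragments over a summit, was recovered from the deposited fold enrichment and p-value of each peak. Among nuclear filtered peaks with a background in the middle of the range, 2.75 to 3.49 fragments, the lowest pileup was 10 fragments and the lowest fold enrichment was 2.76. Over all nuclear filtered peaks, whatever their background, the lowest values were 5 fragments and 2.33. The pileup and the background at ELF3 are not in the lists, so no limit can be given for ELF3 itself, and a signal weaker than the listed peaks cannot be told from none.

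ELF4, the small protein partner of ELF3, had the strongest peak of the complex. It spanned 16734786 to 16735365 on chromosome 2 in the coordinates of the authors' files (TAIR10), a width of 580 bp. The summit lay at 16735082, 129 bp outside the high-coordinate end of ELF4, and the peak covered the last 168 bp of the annotated gene on that side. The gene table has no strand, so upstream and downstream sides are not named here. ELF4 is short, at 660 bp, and its peak was nearly as wide as the gene.

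The ELF4 peak rested on a pileup of 59 fragments (exact Poisson 95% interval 44.9 to 76.1) over a background of 5.07. Its deposited −log10 p was 41.8 and its −log10 q 38.9. That pileup was 2.68 times the median of nuclear filtered peaks, while the fold enrichment was 1.81 times the median. The background at ELF4 was itself 1.65 times the median, a level reached by 1.81% of nuclear filtered peaks. The ELF4 peak accordingly ranked 637th of 3210 by fold enrichment, within the top 19.8%, but 333rd by pileup, within the top 10.4%. What raised the background there was not tested.

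No other gene had the ELF4 summit closer than ELF4 itself. The long non-coding RNA gene AT2G09110 lay 481 bp from it, AT2G40085 1235 bp, and ATH9 2384 bp. The next filtered summit was 10590 bp away, against a median distance of 6452 bp between a filtered summit and its nearest neighbour. The ELF4 peak was the only filtered peak in the window of its gene, as were the LUX and BOA peaks in theirs. The BOA summit was farther from its nearest neighbour, at 11527 bp.

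LUX, the DNA-binding member, had a peak from 17182525 to 17183066 on chromosome 3, 542 bp wide. Its summit at 17182800 lay 242 bp outside the low-coordinate end of LUX, and the peak overlapped the gene by 25 bp. The pileup was 33 fragments (exact Poisson 95% interval 22.7 to 46.3) over a background of 2.96, which is 0.961 of the median background. Its −log10 q was 21.1. By fold enrichment it ranked 803rd of the 3210 nuclear filtered peaks, and by −log10 q within the top 25.9%.

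The LUX peak sits in a short interval between neighbouring genes. The summit was 240 bp from the end of AT3G46630 and 242 bp from LUX, so the distances differ by only 2 bp. The peak also overlapped AT3G46630, by 36 bp. With each summit given to the closest protein-coding gene alone, this peak went to AT3G46630 and not to LUX. Position alone cannot tell to which gene the peak belongs.

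Another filtered peak lay near LUX but outside the window. It spanned 17177447 to 17178161, with its summit 5301 bp from LUX, a fold enrichment of 7.40 and 38 fragments in the pileup. Its summit fell in the long non-coding RNA gene AT3G07505 and 860 bp from RDUF1, which encodes a RING-type protein. It is the nearest peak to LUX that the 3000 bp rule left out.

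BOA, the relative of LUX, was counted by a narrow margin. Its peak spanned 24010662 to 24011058 on chromosome 5 and was 397 bp wide, 0.843 of the median width. The summit at 24010828 lay 2984 bp from the high-coordinate end of BOA and the peak did not overlap the gene. The pileup was 25 fragments (exact Poisson 95% interval 16.2 to 36.9) over a background of 2.35, with a −log10 q of 15.5. The peak ranked within the top 29.1% of nuclear filtered peaks by fold enrichment, and within the top 40.3% by pileup, at 1.14 times the median.

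Several other genes were closer to the BOA peak than BOA was. The summit lay 72 bp from AT5G59610, 140 bp from UGT76E2 and 172 bp from AT5G59600, and the peak overlapped these genes by 159, 27 and 59 bp. UGT76E1, which overlaps BOA, was 2921 bp away. On the other side of BOA the nearest summit was 4587 bp away, outside the window. It belonged to a peak from 23999154 to 24000007 inside RDUF2, with a fold enrichment of 4.93. A farther peak, 6242 bp from BOA, had a fold enrichment of 3.80. Within 2000 bp of BOA there was no filtered summit.

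The number of members counted depended on how far a summit could lie from the gene. With summits inside the gene only, 0 of the 4 members had a filtered peak, against 4.28% of all protein-coding genes. A limit of 1000 bp counted ELF4 and LUX, against 11.2% of genes, and 2000 bp counted the same pair, against 15.3%. At 5000 bp the count was 3, against 26.5%. Giving each summit to its nearest protein-coding gene alone left ELF4, against 9.39% of genes. The same 3 peaks passed a −log10 q of 5, where 16.2% of genes had a peak, and of 10, where 10.7% did. Counting any overlap of at least 1 bp with the window, or the 35S:CO list before filtering, also gave 3 members, against 20.3% and 19.3% of genes. In co-10 the count was 0 at limits of 1000, 5000 and 10000 bp, against 0.321%, 0.889% and 1.57% of genes. These shares are too low for a count of 0 among 4 genes to say more.

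**Figure D2:**
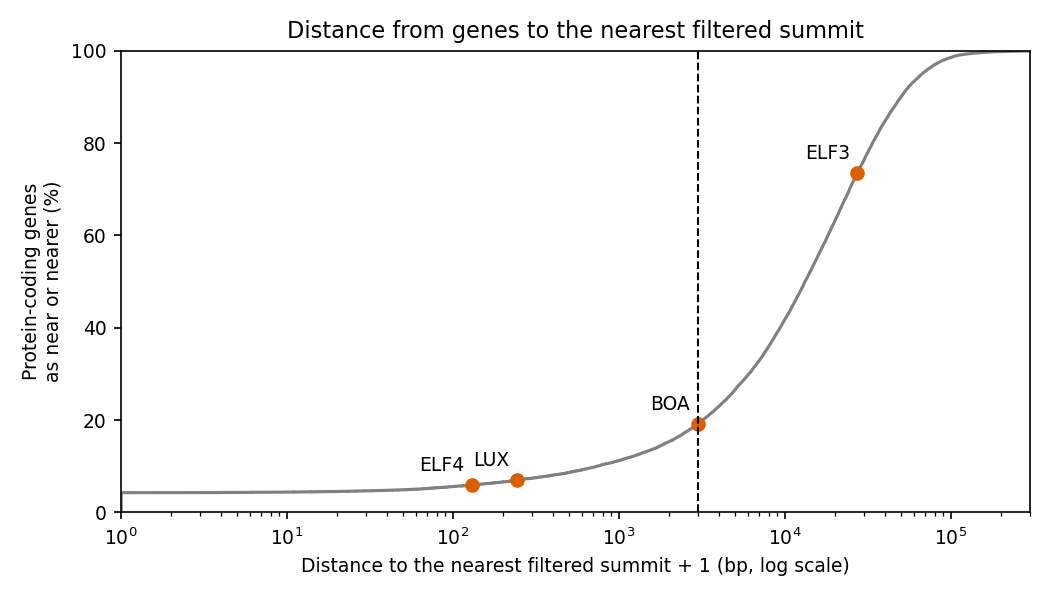
Share of all 27444 protein-coding genes (y axis, %) with a filtered summit as near as or nearer than the distance on the x axis (bp + 1, log scale), with the 4 evening complex genes as orange points and the 3000 bp limit as a dashed line. ELF4 and LUX lie among the nearest 5.94% and 7.04% of genes, BOA at 19.1% touches the limit, and ELF3 lies at 73.5%.

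The distances of the members were compared with those of all genes that passed the rule. In the whole genome 5257 protein-coding genes had a filtered summit within 3000 bp. The nearest summit was inside the gene for 22.3% of them, outside within 250 bp for 14.9%, and beyond 1000 bp for 41.5%. ELF4 and LUX belong to the class within 250 bp. BOA belongs to the class beyond 1000 bp. The median filtered summit had 2 protein-coding genes within 3000 bp.

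The order of the 3 peaks in strength was ELF4, LUX, BOA by fold enrichment, −log10 q and pileup alike. With the counting error of the pileup carried over, the fold enrichment had an interval of 7.57 to 12.7 at ELF4, 6.0 to 12 at LUX and 5.14 to 11.3 at BOA. These intervals overlap, and differences in fold enrichment between the peaks were not tested. By pileup the ELF4 interval started at 44.9, above the BOA interval, which ended at 36.9, and it overlapped the LUX interval. The background also differed, at 5.07 for ELF4, 2.96 for LUX and 2.35 for BOA, so pileups alone do not compare enrichment. The intervals hold the background fixed and cover counting error only. Spread from PCR amplification and between the pooled replicates is not in them.

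The absence of these peaks from co-10 was set against the lower backgrounds of that list, from which depth was read. The median background was 1.09 fragments at nuclear co-10 peaks and 3.07 at nuclear 35S:CO peaks. At 47 pairs of overlapping nuclear peaks whose backgrounds did not exceed 10 fragments, the median ratio of the co-10 to the 35S:CO background was 0.530. Scaled by that factor, the ELF4 peak would have a pileup of 31 and a −log10 p of 22.8, the LUX peak 17 and 12.9, and the BOA peak 13 and 10.1. The weakest nuclear co-10 peak had a −log10 p of 4.28. The calling threshold was not given, so a value above 4.28 does not show that a peak would be listed. The ratio of the median background over every nuclear peak of each list, 0.356, gave 15.1 at ELF4, 8.84 at LUX and 6.59 at BOA. All 6 scaled values were above 4.28. They rest on the assumed formula and on backgrounds behind peaks, and the part of depth in the absence from co-10 was not tested. The nearest co-10 summits were 2325 kb from ELF4, 207.4 kb from LUX, 1780 kb from BOA and 183.7 kb from ELF3.

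**Figure D3:**
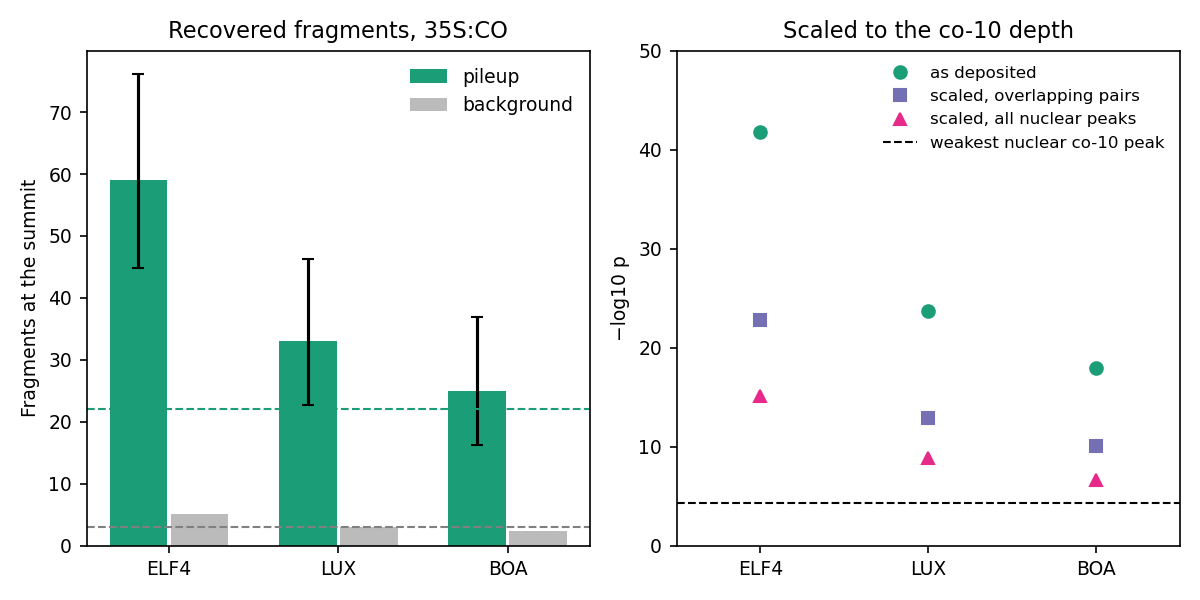
Left, recovered pileup (green, with exact Poisson 95% intervals) and background (grey) in fragments at the summits of the ELF4, LUX and BOA peaks, with the medians of nuclear filtered peaks as dashed lines; right, −log10 p of the same peaks as deposited and after scaling to the co-10 depth by 2 factors, with the weakest nuclear co-10 peak as a dashed line. ELF4 stands highest in both panels, and all 6 scaled values lie above 4.28.

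None of the listed relatives of the ELF genes had a peak. The ELF4-like genes ELF4-L1, ELF4-L2, ELF4-L3 and ELF4-L4, and AT3G21320, had no filtered summit within 3000 bp, which is 0 of 5. ELF4-L1 was the nearest of them, with a summit 7731 bp away, and ELF4-L3 the farthest at 128427 bp. At a background share of 19.2%, a list of 5 genes is too short for that count to say more.

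Among 6 genes known to be repressed by the evening complex, 5 had a filtered summit within 3000 bp, against 19.2% of all protein-coding genes. The clock repressor gene PRR9 had the highest fold enrichment, 30.6, with a summit 156 bp from the gene. GI, a clock and flowering regulator, had 3 summits, the nearest inside the gene and the strongest, at 18.3, 2558 bp from it. The coactivator gene LNK1 had 7.42, and the growth-promoting factors PIF5 and PIF4 had 6.23 and 4.67 with summits inside the gene. PRR7 had none, with its nearest summit 6646 bp away. The median strongest fold enrichment of the 5 genes was 7.42, against 8.60 for the 3 evening complex genes and 6.15 for all 5257 genes that passed.

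Of 8 genes whose products act with or on ELF3, 3 had a filtered summit within 3000 bp, where the share over all protein-coding genes was 19.2%. BBX19, a B-box protein that promotes ELF3 breakdown, had a fold enrichment of 51.5 at a summit 246 bp from the gene. COP1 had 6.99 at 13 bp, and the photoreceptor gene PHYB had 5.16 at 1238 bp. The histone deacetylase gene HDA9 had none within 3000 bp, nor did AT5G18190, AT3G03940, AT2G25760 and AT3G13670. BBX19 was the only one of the 3 with a stronger peak than ELF4.

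Most other clock genes with a peak had a higher fold enrichment than the evening complex genes. Of 26 other clock genes, 4 of which are also among the 6 repressed genes, 22 had a filtered summit within 3000 bp, beside 19.2% of all protein-coding genes. Their median strongest fold enrichment was 17.9, with a range of 4.47 to 55.5. Some of these genes had more than 1 summit within 3000 bp, and the strongest was not always the nearest. At GI the strongest summit lay 2558 bp away and the nearest was inside the gene. The highest values were 55.5 at the clock repressor gene PRR5, with the summit in AT5G03755, a long non-coding RNA gene, 43.6 at the clock activator gene RVE8 and 42.2 at AT1G01520 (ASG4), with a summit that lies in AT1G01510 (AN) as well. All 3 evening complex peaks fell in the same place in that order, below 17 of the 22 and above the other 5. None of the 26 genes had a co-10 summit within 3000 bp, which 0.619% of all protein-coding genes had. That share is too low for the count to say more. These counts describe lists chosen with results of these data known, and no difference between the lists was tested.

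**Figure D4:**
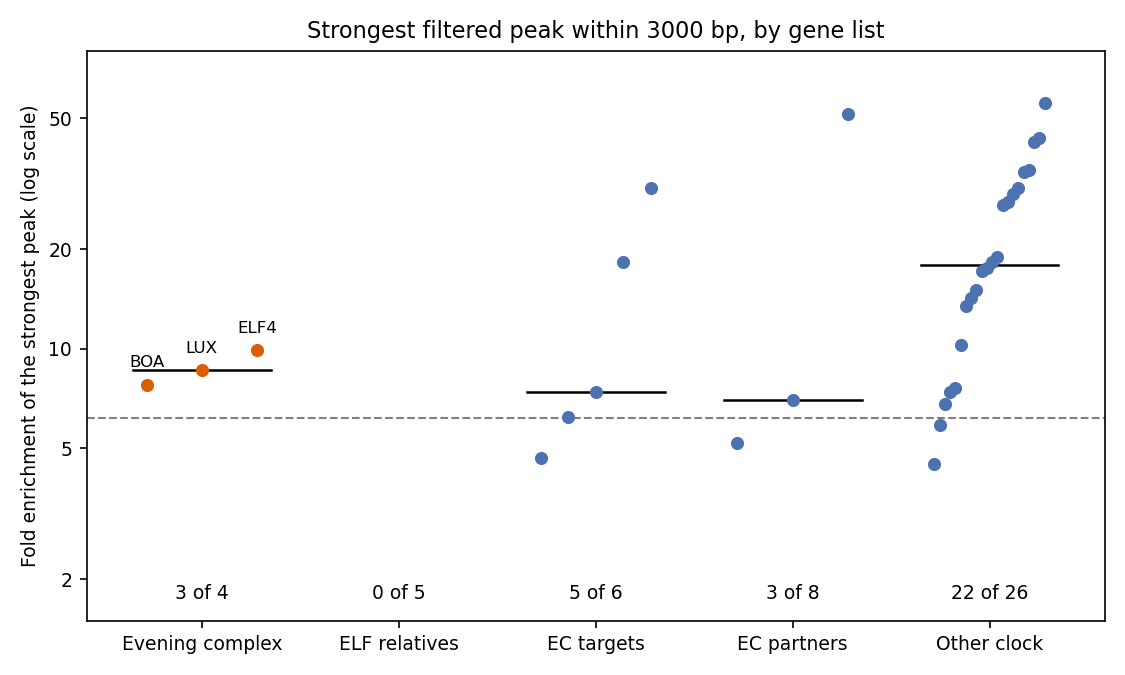
Fold enrichment of the strongest filtered peak within 3000 bp (log scale) for each gene of 5 lists, as 1 point per gene with a peak, the median as a black line and the median of all protein-coding genes with a peak, 6.15, as a dashed line; numbers at the bottom give the genes with a peak out of the genes in the list. The evening complex points run from 7.77 to 9.89, and the other clock genes reach 55.5.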

How the data were processed

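ChIP-seq with an anti-CO antibody was analysed from 3 peak lists that the authors deposited, for 35S:CO, co-10 and a filtered set. Per the labels' protocols, tissue was crosslinked with formaldehyde (1%) and with DSG, a protein-protein crosslinker, so DNA held through other proteins can be recovered too. Peak names carry the word "both", so the peaks were taken as called on pooled replicates. FastQC, Bowtie, MACS2, deepTools and the build TAIR10 are named in the submitters' processing notes, without versions. The authors deposited a fold enrichment (ratio), a −log10 p-value, a −log10 q-value and a score for each peak, and the score was 10 times the −log10 q, rounded down, in 3686 of 3686 peaks. Thresholds and the filter rule were not given in the sources used here. Depth per sample is unknown.

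Summits were counted from 1. Gene positions came from a RefSeq table of TAIR10.1, whose coordinates are not printed. All 45 listed loci matched it. As a check of the fit, 38.2% of nuclear filtered summits lay inside protein-coding genes, against 59.1% and 58.7% after moving them by 5000 bp to either side. Pileup and background were recovered with fold = (pileup + 1) / (background + 1) and a Poisson p-value, within 0.001 of the deposited −log10 p for all 3210 nuclear filtered peaks; the code was checked on simulated data. They rest on that assumed formula. Scaled pileups were rounded down. Python 3.11.15 and SciPy 1.17.1 were used.

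The members and gene lists were chosen with earlier results of these data known. Named genes were the 4 members, all genes of the 3 short lists, the 3 strongest other clock genes and the genes beside member peaks; the next peaks beyond the window were added after their values were seen. The planned motif counts were not run, since no sequence was used here.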

Additional observations from a re-analysis of the deposited data

How the results depend on the processing

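No paired analysis was possible because a list covers its genotype as a whole and carries no replicate number; leaving out replicates was not possible either, and the motif alternatives were not run. The count of 3 evening complex genes with a filtered summit became 0 when only summits inside the gene counted and 1 (ELF4) when each summit went only to its nearest protein-coding gene, an alternative chosen after seeing the data. It was 2 (ELF4 and LUX) with windows of 1000 bp and 2000 bp, the latter also chosen after seeing the data. The share of all protein-coding genes, 19.2%, was 4.28% for summits inside the gene, 11.2% at 1000 bp, 10.7% at a −log10 q of at least 10 and 9.39% with nearest genes only; these rules count fewer summits or genes by construction. The other counts are given with the results above. The scaled peaks stayed above the weakest co-10 peak under both factors. The rank of the ELF4 peak moved from the top 19.8% by fold enrichment to 13.7% by −log10 q and 10.4% by pileup, and that of the BOA peak from the top 29.1% to 34.4% and 40.3%. Depth limits the weak end, where signal below the listed peaks does not appear, and merged replicates hide the spread between samples.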

Other observations

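The surroundings of LUX and BOA have a similar gene order, and both hold filtered peaks on the same side. RDUF1 lies on the low-coordinate side of LUX and its relative RDUF2 on the low-coordinate side of BOA. Genes of the UGT76E family lie on the other side, UGT76E12 and UGT76E11 beside LUX and UGT76E2 beside BOA. UGT76E1 overlaps BOA for most of its length. RDUF1 had a filtered summit 860 bp away with a fold enrichment of 7.40. RDUF2 held a summit of 4.93 inside the gene and had another 518 bp away at 3.80. SRR1, a gene of red light signalling and the clock that neighbours BOA, was 1175 bp from the RDUF2 summit. On the UGT76E side the regions differed: UGT76E2 had the summit counted for BOA 140 bp away, whereas the nearest summits to UGT76E12 and UGT76E11, beside LUX, were 6464 bp and 9680 bp away. The summit nearest to UGT76E11 belonged to a peak with a fold enrichment of 13.3, higher than at any evening complex gene. That summit lay 17.1 kb from LUX on the high-coordinate side and 2003 bp from AT3G46700. These positions were noticed in the data and were not tested.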
